A study of Homo sapiens with 15 samples.

Results

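The interleukins and interleukin receptors of the NanoString PanCancer Pathways panel were taken as every endogenous gene whose symbol is IL followed by a digit, which gave 32 of the 730 endogenous genes, 15 ligands and 17 receptors or receptor-like proteins. They were measured in HCT116, an established human colorectal carcinoma line of epithelial origin. The cells received 40 µM thymoquinone (TQ, a plant-derived quinone), 15 µM 5-fluorouracil (5-FU, a pyrimidine analog used against colorectal cancer), 35 µM of each drug together (Combi) or 35 µM SARB, a hybrid in which TQ and 5-FU are joined through esterification, and the control was left untreated. Each of the 5 groups had 3 biological replicates, collected after 24 h, and Combi and SARB were the only treatments given at a matched dose, since TQ alone was dosed above and 5-FU alone below its share of Combi. The design asks which genes differ between treated and untreated cells and among the treatments.

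Interleukins are secreted signaling proteins through which leukocytes and epithelial cells direct inflammation, growth and immune responses. Most of their receptors are assembled from a ligand-binding chain and a shared signaling chain and pass the signal through JAK kinases to STAT transcription factors, which SOCS proteins restrain. The IL-1 receptors instead use MYD88 and IRAK adaptors to release NF-kB, and IL8 is a chemokine that attracts neutrophils through G protein-coupled receptors. Colon epithelial cells are known to carry receptors for IL-1, IL-6 and IL-22 and to make IL8 when NF-kB or AP-1 is active.

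In the Combi samples 4 members were called higher, and the promoter windows of these 4 genes, picked by that call, are shown. Each window runs from 250 bases before to 50 bases after the RefSeq start of the gene on GRCh38.p14, 5′ to 3′. Capitals mark a match on either strand to the AP-1 letters TGANTCA or the NF-kB letters GGANTTTCC, which do not overlap in these windows. IL8 is listed by RefSeq as CXCL8, and its window lies at chr4:73740319-73740618 on the plus strand. The windows of IL12A at chr3:159988585-159988884, IL6R at chr1:154405093-154405392 and IL1RAP at chr3:190513835-190514134 are also on the plus strand.
IL8: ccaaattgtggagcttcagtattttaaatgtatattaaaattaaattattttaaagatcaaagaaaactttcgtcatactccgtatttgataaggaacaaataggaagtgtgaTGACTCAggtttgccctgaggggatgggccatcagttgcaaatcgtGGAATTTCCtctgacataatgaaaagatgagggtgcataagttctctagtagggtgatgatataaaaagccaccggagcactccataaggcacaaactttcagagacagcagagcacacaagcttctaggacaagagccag
IL12A: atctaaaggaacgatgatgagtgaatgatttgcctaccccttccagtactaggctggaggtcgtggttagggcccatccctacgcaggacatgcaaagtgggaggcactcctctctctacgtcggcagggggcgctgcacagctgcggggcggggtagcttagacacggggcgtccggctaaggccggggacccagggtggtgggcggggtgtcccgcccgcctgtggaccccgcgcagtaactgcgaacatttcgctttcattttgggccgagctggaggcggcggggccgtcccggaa
IL6R: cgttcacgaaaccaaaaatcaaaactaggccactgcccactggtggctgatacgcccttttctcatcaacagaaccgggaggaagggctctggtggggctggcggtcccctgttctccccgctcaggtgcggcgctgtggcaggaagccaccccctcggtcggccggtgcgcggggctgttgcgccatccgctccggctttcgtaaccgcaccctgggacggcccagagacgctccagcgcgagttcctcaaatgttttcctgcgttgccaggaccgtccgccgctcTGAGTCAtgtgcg
IL1RAP: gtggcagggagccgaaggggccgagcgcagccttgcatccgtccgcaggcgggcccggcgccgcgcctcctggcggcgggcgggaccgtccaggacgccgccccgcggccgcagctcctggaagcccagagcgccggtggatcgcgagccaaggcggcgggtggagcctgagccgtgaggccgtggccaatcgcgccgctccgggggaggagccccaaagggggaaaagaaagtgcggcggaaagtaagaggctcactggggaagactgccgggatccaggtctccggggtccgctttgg

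The IL8 window held the AP-1 letters TGACTCA beginning at position -137 and the NF-kB letters GGAATTTCC beginning at -91, counted from the gene start. The IL6R window held TGAGTCA beginning at position 38 after the start, and the windows of IL12A and IL1RAP held neither set of letters. RefSeq windows were matched for 27 of the 32 members, 40 windows in all, and not for IL13RA2, IL15, IL23R, IL2RB and IL7. The AP-1 letters were found in 9 of the 40 windows (22.5%) and in 7.71% of all 35116 windows, and the NF-kB letters in 3 of the 40 (7.5%) and in 1.64% of all. Some members had several windows, and a match describes the letters only. The windows of IL1A overlapped each other and held the same AP-1 letters. A window of IL10 and a window of IL19 overlapped on opposite strands and shared theirs. Such letters were counted in each window, so the windows with AP-1 letters are not all separate promoters.

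The assay counts color-coded probe pairs captured on each transcript without amplification. Total endogenous counts ranged from 135017 to 607782 per sample, and the 8 negative probes, which have no target in the cells, averaged 3.12 to 16.38 counts. A member was taken to be above background in a group when its count exceeded the mean plus 2 SD of the negative probes of the same sample in all 3 samples, a limit that lay between 6.2 and 26.4 counts. Raw counts were scaled to an equal geometric mean of the 40 housekeeping genes, which gives the scaled counts, and a gene was called higher or lower at an adjusted p of at most 0.05 (edgeR's quasi-likelihood test, Benjamini-Hochberg adjustment over 730 genes) and a fold change of at least 1.5. Cartridge 1 held control replicate 1 and all TQ, 5-FU and SARB samples, cartridge 2 held control replicates 2 and 3 and Combi replicate 1, and cartridge 3 held Combi replicates 2 and 3. The 4 treatments share the same 3 control samples. The 6 epithelial markers checked, CDH1, MET, LAMB3, ITGB4, ITGA6 and SFN, were above background in every group.

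More receptors than ligands were above background in these cells. Of the 32 members, 14 were above background in at least 1 group (43.8%), against 542 of all 730 genes (74.2%), and 19 members were when only 2 of 3 samples were required. The 14 were 4 of the 15 ligands (IL8, IL12A, IL23A and IL11) and 10 of the 17 receptors (IL1R1, IL1R2, IL1RAP, IL6R, IL11RA, IL20RB, IL22RA1, IL22RA2, IL23R and IL3RA). The control had 5 members above background, all of them receptors: IL1R1, IL1RAP, IL6R, IL20RB and IL22RA1. These 5 were also above background in every other group. TQ, 5-FU and SARB had 9 members each and Combi had 12, while all genes counted 423 in control, 490 in TQ, 483 in 5-FU, 463 in SARB and 501 in Combi.

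No ligand was above background in the control, and 3 were in TQ (IL8, IL12A and IL23A), 3 in 5-FU (IL8, IL12A and IL11), and 2 each in Combi and SARB (IL8 and IL12A). With the lower limits of TQ, IL12A passed there at a mean of 34.1 scaled counts but not in the control at 37.0. Some members lay close to the limit. In the control, IL1RAP passed with 15, 27 and 25 counts against limits of 12.5, 26.4 and 24.9, and IL22RA2 passed in SARB with 17, 26 and 12 counts against 13.4, 24.4 and 11.0. Just outside, IL7R reached 15, 27 and 14 counts in the control and IL3 reached 16, 21 and 25, each failing in 1 sample. With 3 SD in place of 2 SD, IL11, IL1R2, IL22RA2 and IL3RA were no longer set apart, and with 2 of 3 samples required IL15, IL1A, IL3, IL7 and IL7R were added. Reporter counts come from whole-cell RNA, so fewer transcribing cells and less RNA per cell cannot be told apart.

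The 18 members that were above background in no group were the ligands IL1A, IL1B, IL3, IL6, IL7, IL10, IL12B, IL13, IL15, IL19 and IL24 and the receptors IL2RA, IL2RB, IL5RA, IL7R, IL12RB2, IL13RA2 and IL20RA. Their raw counts lay between 1 and 57 in a sample, and their group means between 2.62 and 33.81 scaled counts. Among them are IL6, the main ligand of IL6R, and IL1A and IL1B, the ligands of IL1R1. IL12B, the subunit that joins IL12A to form IL-12 and IL23A to form IL-23, did not exceed the limit in any of the 15 samples, with 2 to 21 counts.

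Few members were called in any comparison, and most calls toward higher expression fell on IL8 and IL12A. In TQ, IL8 was called higher (1 member, 3.12%, against 3.42% of all genes), and 6 members were called lower (18.8%, against 21.6%). In 5-FU, IL12A was called higher (3.12%, against 10.1%) and no member lower (against 10.1% of all genes), with 5 members at an unadjusted p under 0.05. In Combi, IL8, IL12A, IL6R and IL1RAP were called higher (12.5%, against 13.6%) and none lower (against 6.58%), again with 5 members at an unadjusted p under 0.05. In SARB, IL8 and IL12A were called higher (6.25%, against 8.63%), and IL3, IL5RA and IL20RA lower (9.38%, against 20%). In none of these comparisons was the share of members called larger than that of all genes. The medians of the 32 members were lower than those of all genes, at -0.22 against -0.10 on the log2 scale in Combi, -0.51 against -0.27 in 5-FU, -0.72 against -0.41 in SARB and -1.0 against -0.47 in TQ. This order depended on the setting. After the mean of the negative probes was subtracted, the members had the higher median in TQ (-0.16 against -0.20), SARB (-0.15 against -0.28) and Combi (0.12 against 0.06). Counts under 1 were set to 1 in this subtraction, and dim members stood at that floor. In 5-FU, IL1B, IL10, IL19 and IL24 thus gave the same value of -0.295, which was also the member median. The subtracted medians therefore do not place the members against all genes. With cartridge as a block they had it in SARB (-0.03 against -0.23) and 5-FU (0.05 against -0.06), and in TQ both medians were -0.32. All 3 treated samples lay above all control samples in 5 members in Combi (15.6%, against 19.3% of all genes), 3 in SARB (9.38%, against 13.2%), 3 in 5-FU (9.38%, against 16.3%) and 1 in TQ (3.12%, against 6.16%).

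**Figure D1:**
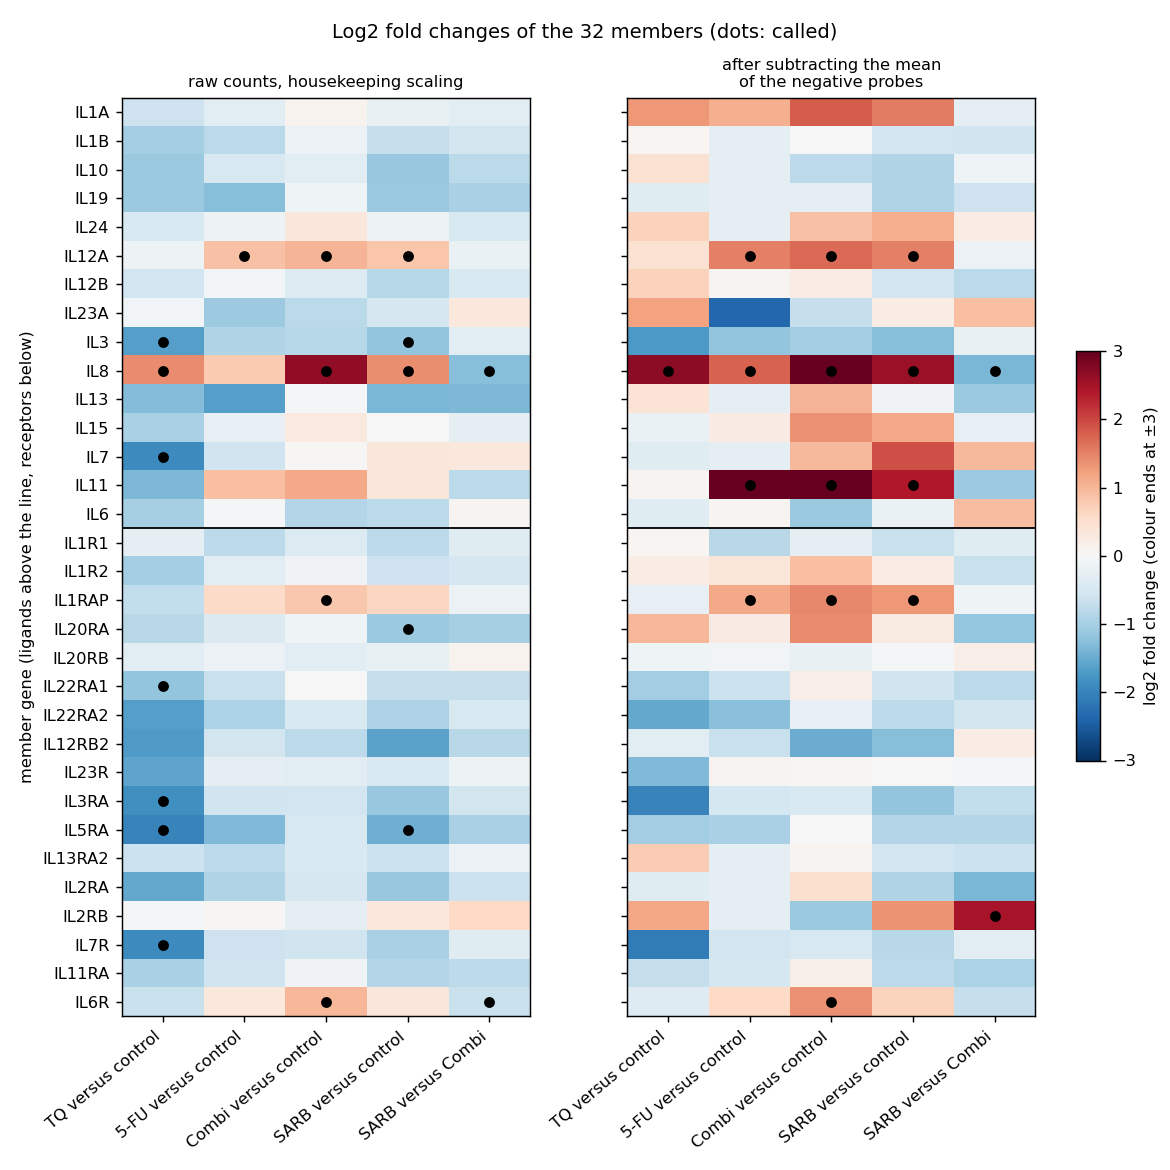
Log2 fold changes of the 32 members (rows) in 5 comparisons (columns), on the left from raw counts with housekeeping scaling and on the right after the mean of the negative probes was subtracted, with black dots for called members. The calls of IL8 and IL12A toward higher expression stand in both panels, while the 9 calls toward lower expression against control on the left are absent on the right, where the fold changes of IL3, IL3RA and IL7R in TQ are of similar size (-1.71, -2.0 and -2.11).

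IL8, the neutrophil-attracting chemokine, rose in TQ, Combi and SARB, with the highest scaled counts in Combi, which shared no cartridge with the other treatments. The control samples gave 5, 16 and 24 counts, all below the background limit of their sample, which scaled to 8.65, 24.2 and 40.3. Combi gave 127, 328 and 249 counts, which scaled to 144, 173 and 149. TQ scaled to 58.8, 70.3 and 64.8 and SARB to 90.6, 67.4 and 40.4. Every Combi, TQ and SARB sample therefore lay above every control sample, although SARB replicate 3 (40.35) and control replicate 3 (40.34) were nearly level.

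The means of IL8 were 24.4 ± 15.8 scaled counts in control, 155 ± 15.3 in Combi, 64.6 ± 5.77 in TQ and 66.1 ± 25.2 in SARB (SD, n = 3 each). On the log2 scale IL8 rose by 2.66 in Combi (SE 0.33, 95% interval 1.98 to 3.35, edgeR adjusted p = 1.71e-06), by 1.42 in TQ (SE 0.36, edgeR adjusted p = 0.00622) and by 1.39 in SARB (SE 0.35, edgeR adjusted p = 0.00396). Because the control was at background, the treated means were also set against the mean control limit of 34.5 scaled counts, and they were 4.51-fold in Combi, 1.87-fold in TQ and 1.92-fold in SARB. In 5-FU, IL8 gave 51.3, 37.3 and 37.5 scaled counts, all above background, but these overlapped with control replicate 3. Its log2 fold change of 0.78 (95% interval -0.01 to 1.57, adjusted p = 0.13 from edgeR) was not called, whereas it was called under 7 of 15 alternatives, among them after TMM normalization (1.00), without control replicate 3 (1.32) and with cartridge as a block (2.27).

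The order of mean IL8 levels was Combi, SARB, TQ, 5-FU and control. The SARB samples overlapped with those of TQ and of 5-FU, while every TQ sample lay above every 5-FU sample. The place of Combi in this order cannot be told apart from cartridge. Within cartridge 1, where control replicate 1 was the only control, the log2 ratio was 2.93 for SARB, 2.90 for TQ and 2.28 for 5-FU. Within cartridge 2, Combi replicate 1 against control replicates 2 and 3 gave 2.16. IL8 was called higher in Combi, TQ and SARB under each of 15 alternatives, with log2 fold changes of 2.17 to 4.33, 1.04 to 3.02 and 1.00 to 2.92.

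**Figure D2:**
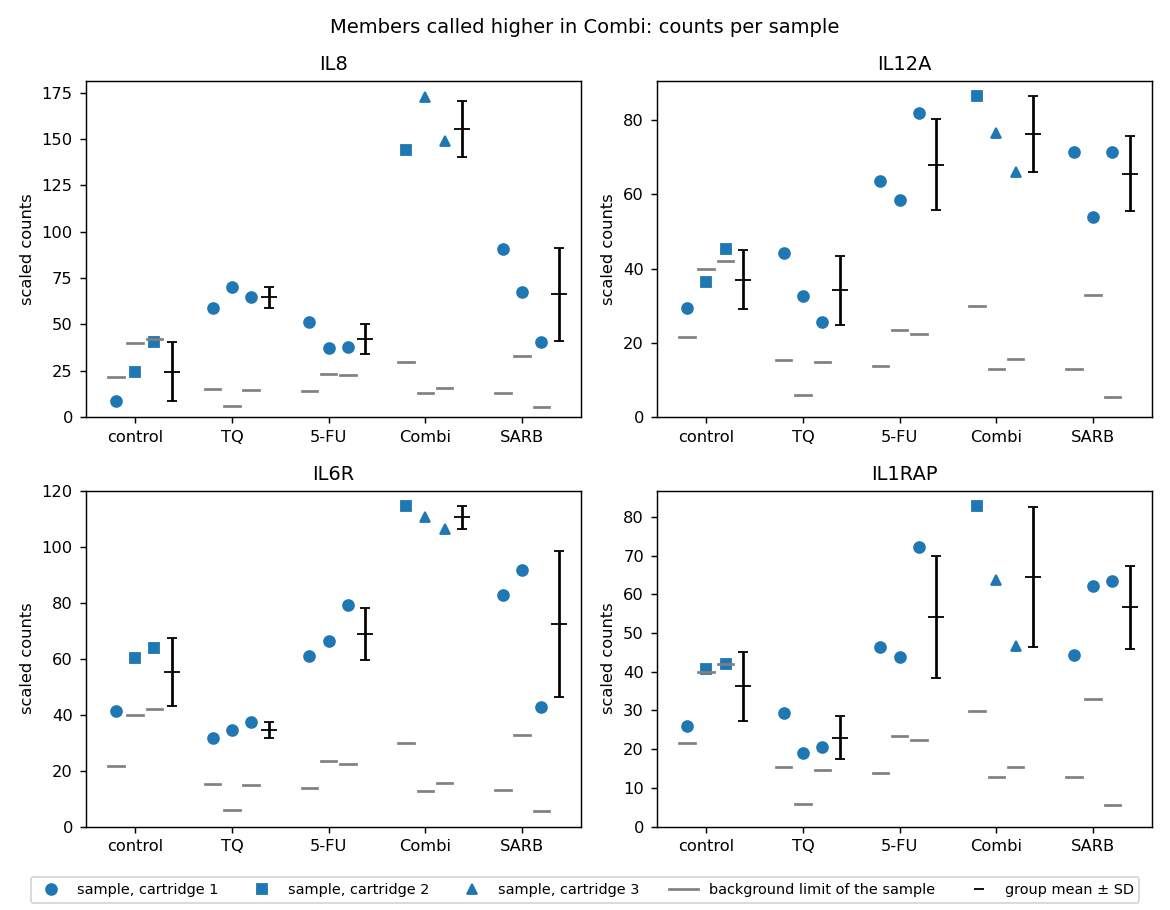
Scaled counts of IL8, IL12A, IL6R and IL1RAP in each of the 15 samples (marker shape for the cartridge), with the background limit of each sample as a gray bar and the group mean ± SD in black (n = 3). Combi gave 144 to 173 scaled counts of IL8 against 8.65 to 40.3 in the control, where all 3 samples lay under their background limits.

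IL12A encodes the subunit that pairs with IL12B in IL-12 and with EBI3 in IL-35. It gave 29.4, 36.3 and 45.4 scaled counts in the control, where replicate 2 was below its limit, and 44.1, 32.7 and 25.6 in TQ. The values were 86.3, 76.4 and 65.9 in Combi, 71.3, 53.9 and 71.4 in SARB, and 63.5, 58.5 and 82.0 in 5-FU. All samples of 5-FU, Combi and SARB lay above all control samples, while TQ overlapped with the control.

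The log2 fold change of IL12A was 1.03 in Combi (SE 0.25, adjusted p = 0.00298 from edgeR), 0.87 in 5-FU (SE 0.26, adjusted p = 0.0136) and 0.84 in SARB (SE 0.25, adjusted p = 0.0131). The means of 76.2 ± 10.2, 68.0 ± 12.4 and 65.5 ± 10.1 scaled counts (SD, n = 3) came from overlapping samples, and SARB and Combi differed by -0.19 (95% interval -0.65 to 0.26). In TQ the mean was 34.1 ± 9.33 against 37.0 ± 8.01 in control. The call in Combi held under 15 of 15 alternatives. In 5-FU it was lost without control replicate 1 or without 5-FU replicate 3, and in SARB it was lost when only these 2 groups were fitted.

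IL23A, the subunit that joins IL12B to form IL-23, was above background in all 3 samples of TQ only, with 29.4, 17.9 and 22.2 scaled counts. The control gave 22.5, 18.1 and 30.3, so the scaled level did not separate them, and the lower limits of the TQ samples, 5.90 to 15.3 scaled counts against 21.6 to 41.9 in the control, moved with this detection. 5-FU gave 8.55, 9.31 and 15.3 and Combi 11.4, 17.4 and 10.8, all below every control sample, with log2 fold changes of -1.09 and -0.81 that did not pass the test (adjusted p = 0.0932 and 0.203 from edgeR). SARB gave 17.4, 25.6 and 9.35.

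IL11, a cytokine that signals through gp130, stayed at 13.4 to 13.8 scaled counts in the control, below the limit of each sample. It was above background in all 5-FU samples (20.8, 30.6 and 25.0) and in Combi replicates 2 and 3 (35.3 and 30.5), with 23.9 in replicate 1. Every 5-FU and Combi sample lay above every control sample, and every TQ sample, at 12.2, 4.32 and 1.71, lay below. The log2 fold change of 1.14 in Combi (adjusted p = 0.104 from edgeR) was not called, but it was called after TMM normalization (1.24) and after subtraction of the negative probes (3.49). The values of 0.89 in 5-FU, 0.34 in SARB and -1.35 in TQ were not called either (adjusted p = 0.216, 0.605 and 0.0947 from edgeR). After subtraction those of 5-FU (3.09) and SARB (2.41) were called, as they were with limma on the deposited signal (2.85 and 2.07), and that of TQ turned to 0.085. All control samples of IL11 stood at the floor of 1 after subtraction of the negative probes. The size of its subtracted fold changes therefore rests on that floor and is not a measured rise.

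Among the receptors, IL6R and IL1RAP were called higher in Combi. IL6R, the ligand-binding chain for IL-6, gave 41.5, 60.5 and 63.9 scaled counts in the control and 115, 111 and 107 in Combi. TQ lay at 31.8, 34.5 and 37.5, 5-FU at 61.1, 66.5 and 79.2, and SARB at 82.9, 91.7 and 42.8. All Combi samples were above and all TQ samples below every control sample, and 5-FU and SARB overlapped with the control.

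IL6R rose from 55.3 ± 12.0 scaled counts in control to 111 ± 4.07 in Combi (SD, n = 3), which is 0.99 on the log2 scale (SE 0.25, edgeR adjusted p = 0.00377). With cartridge as a block the value was 0.88 and the call was lost (adjusted p = 0.107), and it held under the other 14 alternatives. Against control the log2 fold change was -0.67 in TQ and 0.34 in SARB, and neither was called (adjusted p = 0.0718 for TQ). The SARB value was called under 4 of 15 alternatives, among them TMM normalization (0.67) and the omission of SARB replicate 3 (0.65). Against control replicate 1, the only control of cartridge 1, the log2 ratio was 0.80 for SARB, 0.73 for 5-FU and -0.26 for TQ. Combi replicate 1 against the controls of cartridge 2 gave 0.88, so within cartridges the rise was not particular to Combi.

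IL1RAP, the co-receptor that IL1R1 needs for signaling, gave 25.9, 40.8 and 42.0 scaled counts in the control. Combi gave 82.9, 63.8 and 46.7, 5-FU 46.4, 43.9 and 72.3, and SARB 44.3, 62.0 and 63.5, all above the control samples, while TQ gave 29.4, 19.1 and 20.5. Its log2 fold change in Combi was 0.81 (SE 0.30, adjusted p = 0.0479 from edgeR). That call was lost under 8 of 15 alternatives, among them cartridge as a block and the omission of any control sample or of Combi replicate 1 or 2. Within cartridges the log2 ratio to control was 1.13 for SARB, 1.06 for 5-FU, 1.00 for Combi replicate 1 and -0.17 for TQ. The fitted log2 fold changes of 0.57 in 5-FU and 0.64 in SARB were not called. Both were called after subtraction of the negative probes (1.15 and 1.30) and with limma (0.99 and 1.10), and that of SARB also after TMM normalization (1.02).

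IL1R1, the signaling receptor for IL-1, was above background in every group but was not called in any comparison. It gave 36.3, 60.5 and 65.5 scaled counts in the control, 56.3, 43.2 and 35.8 in TQ, 25.6, 39.9 and 29.2 in 5-FU, 48.9, 37.9 and 36.5 in Combi, and 32.8, 41.8 and 23.1 in SARB. The samples of every treatment overlapped with those of the control. The log2 fold changes in 5-FU and SARB were -0.78 and -0.77 (adjusted p = 0.0803 and 0.0558 from edgeR), and that of SARB was called without control replicate 1, without SARB replicate 2 or when genes above background alone were fitted. IL1R2, a decoy that binds IL-1 without signaling, passed the limit in all Combi samples with 28, 27 and 29 counts, and its scaled values of 31.8, 14.2 and 17.4 overlapped with 17.3, 25.7 and 23.5 in the control.

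The receptor chains for IL-20 and IL-22 type cytokines include IL20RB and IL22RA1, which were above background in every group. IL20RB, a signaling chain shared by the receptors for IL-19, IL-20 and IL-24, gave 69.2, 59.0 and 103 scaled counts in the control and means of 68.5 ± 25.2 in SARB, 67.4 ± 4.21 in 5-FU, 62.4 ± 14.9 in Combi and 58.9 ± 6.76 in TQ (SD, n = 3). These ranges overlapped in every comparison and no call was made. IL20RA, which is a partner chain of IL20RB but not the only one, was not above background in any group, nor were the ligands IL19 and IL24.

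IL22RA1, the IL-22 receptor chain, gave 31.1, 65.0 and 84.0 scaled counts in the control and 36.7, 17.3 and 32.4 in TQ. It was called lower in TQ at -1.18 on the log2 scale (SE 0.41, edgeR adjusted p = 0.0326), although control replicate 1 lay within the TQ range. The call was lost under 9 of 15 alternatives, among them after TMM normalization (-0.72), after subtraction of the negative probes (-1.03), with cartridge as a block (-0.24), and without control replicate 2, control replicate 3 or TQ replicate 2. Within cartridge 1 the log2 ratio of TQ to control replicate 1 was -0.11. 5-FU gave 19.5, 37.3 and 58.4, Combi 57.9, 65.3 and 56.3, and SARB 33.7, 48.5 and 29.5, and none of these was called.

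IL22RA2, a soluble protein that binds and blocks IL-22, gave 13.8, 49.9 and 37.0 scaled counts in the control and passed the limit in Combi (31.8, 16.9 and 26.4) and SARB (16.4, 35.1 and 5.91). IL23R, the receptor chain specific to IL-23, passed in the same groups, with 37.5, 16.9 and 18.6 in Combi and 17.4, 39.1 and 10.3 in SARB against 20.8, 40.8 and 26.9 in the control. Both overlapped with the control in Combi and SARB, and all TQ samples of IL23R, at 14.7, 3.08 and 17.1, lay below the control samples. Their log2 fold changes in TQ were -1.66 and -1.57 and missed the threshold (adjusted p = 0.0526 and 0.0581 from edgeR).

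IL11RA, the binding chain for IL-11, was above background in TQ (26.9, 22.2 and 20.5 scaled counts), 5-FU (31.7, 25.3 and 33.4) and Combi (32.9, 51.6 and 41.3). The control gave 24.2, 37.8 and 74.0, a range that overlapped with every treatment, and SARB gave 28.0, 32.4 and 15.7. No call was made for IL11RA. IL3RA, the binding chain for IL-3, was above background in Combi alone, with 36.4, 17.4 and 15.6, against 22.5, 40.8 and 37.0 in the control.

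Of the members called lower in TQ or SARB, IL3, IL5RA, IL7, IL7R and IL20RA were above background in no group, IL3RA was in Combi alone and IL22RA1 in every group. The calls in TQ fell on IL22RA1, IL3RA, IL3, IL5RA, IL7 and IL7R. IL3, a hematopoietic growth factor, had the values 27.7, 31.7 and 42.0 in the control and 12.2, 11.1 and 8.53 in TQ (log2 fold change -1.66, adjusted p = 0.0139 from edgeR). IL3RA gave 19.6, 3.70 and 10.2 in TQ (log2 fold change -1.84, adjusted p = 0.0322).

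IL7, a growth factor for lymphocytes, gave 8.65, 18.1 and 6.72 scaled counts in the control and 2.45, 3.70 and 1.71 in TQ (log2 fold change -1.90). IL7R gave 25.9, 40.8 and 23.5 against 14.7, 5.55 and 6.82 (log2 fold change -1.90), and IL5RA, the binding chain for IL-5, gave 6.92, 22.7 and 16.8 against 4.90, 1.85 and 6.82 (log2 fold change -2.0). For these genes and for IL3 and IL3RA every TQ sample lay below every control sample, and the adjusted p of IL7, IL7R and IL5RA lay between 0.0207 and 0.0247 (edgeR). None of the 6 calls held without TQ replicate 2, and without control replicate 1 the count was 12. In all, 11 members (34.4%) had all TQ samples below all control samples, against 39.5% of all genes.

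In SARB the members called lower were IL3 (27.7, 31.7 and 42.0 in control and 16.4, 22.9 and 7.87 in SARB, log2 fold change -1.17), IL5RA (9.64, 4.05 and 3.45 in SARB, -1.47) and IL20RA (10.4, 19.7 and 23.5 in control and 8.68, 9.44 and 6.89 in SARB, -1.12). Their adjusted p lay between 0.0431 and 0.048 (edgeR), close to the threshold. IL3 and IL20RA did not overlap with the control, and IL5RA did. The 3 calls were all lost when control replicate 2, control replicate 3 or SARB replicate 3 was left out, and without SARB replicate 2 the count was 10.

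The negative probes moved in the same direction as these members. After housekeeping scaling their mean was 16.8 ± 4.61 in control, and it fell by 1.45 on the log2 scale to 6.15 ± 2.26 in TQ and by 0.93 to 8.81 ± 6.78 in SARB (SD, n = 3). The ratios for 5-FU (10.7 ± 2.86) and Combi (10.6 ± 3.75) were -0.65 and -0.67. Control replicate 1, on cartridge 1, averaged 11.7, and control replicates 2 and 3, on cartridge 2, averaged 18.1 and 20.6. SARB replicate 2 (16.3), 5-FU replicate 3 (13.9) and Combi replicate 1 (14.6) lay above control replicate 1, while every TQ sample lay below it. Whether this shift goes with treatment or with cartridge was not tested. The 18 members above background in no group averaged 15.2 ± 3.34 in control, 7.41 ± 2.09 in TQ, 9.79 ± 4.2 in SARB, 10.1 ± 1.98 in 5-FU and 12.6 ± 2.29 in Combi. Their median log2 fold changes were -1.08 for TQ, -0.91 for SARB, -0.57 for 5-FU and -0.30 for Combi. When the mean of the negative probes was subtracted before the fit, no member was called lower in TQ or SARB, with 4 and 6 members at an unadjusted p under 0.05. The log2 fold changes in TQ were then of similar size for IL3 (-1.71), IL3RA (-2.0), IL7R (-2.11) and IL22RA1 (-1.03), and closer to 0 for IL5RA (-1.05) and IL7 (-0.36). In SARB they were -1.27 for IL3 and -0.88 for IL5RA, and that of IL20RA turned to 0.27. After subtraction IL7 stood at the floor of 1 in every control and TQ sample, so its TQ value reflects the scaling alone. With cartridge as a block no member was called lower in any comparison, against 3.56% of all genes in TQ, 7.67% in SARB, 5.34% in 5-FU, 4.79% in Combi and 0.137% for SARB against Combi. With this block the TQ values were -1.68 for IL7R, -1.52 for IL7, -1.37 for IL3, -1.27 for IL3RA, -0.84 for IL5RA and -0.24 for IL22RA1, and the SARB values were -0.89 for IL3, -0.35 for IL20RA and -0.31 for IL5RA.

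**Figure D3:**
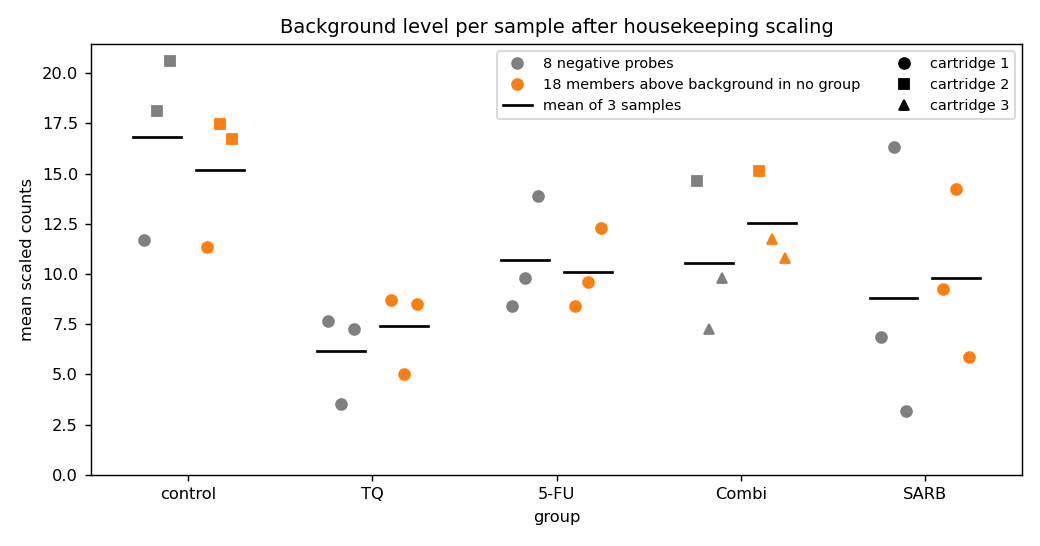
Mean scaled counts of the 8 negative probes (gray) and of the 18 members above background in no group (orange) in each sample, with marker shapes for the cartridge and black lines for the mean of 3 samples. The negative probes averaged 16.8 in control and 6.15 in TQ, and the 18 members averaged 15.2 and 7.41.

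SARB and Combi, the hybrid and the mixture of the same drugs at 35 µM, were compared as the only pair at a matched dose. No member was called higher in SARB (against 0.959% of all genes), and IL8 and IL6R were called lower (6.25%, against 11.2%), with 5 members at an unadjusted p under 0.05. All 3 SARB samples lay below all Combi samples in 6 members (18.8%), against 28.9% of all genes, and above them in 0 members, against 4.93%. The median of the members was -0.48 on the log2 scale, against -0.32 for all genes, and with cartridge as a block it was 0.11 against -0.12.

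IL8 was lower in SARB than in Combi by -1.28 on the log2 scale (SE 0.27, 95% interval -1.84 to -0.72, edgeR adjusted p = 0.00272), with 40.4 to 90.6 scaled counts against 144 to 173. IL6R was lower by -0.66 (95% interval -1.13 to -0.18, adjusted p = 0.0495), with 42.8 to 91.7 against 107 to 115, and this call was lost under 13 of 15 alternatives. No cartridge held both groups. With cartridge as a block, which rests on Combi replicate 1 and the controls, the IL8 difference was 0.70 and was not called (adjusted p = 0.997), so treatment and cartridge cannot be told apart for this pair. For IL1RAP the difference was -0.17 (95% interval -0.73 to 0.40), for IL20RB 0.11 (-0.44 to 0.66), for IL1R1 -0.36 (-1.0 to 0.27) and for IL11 -0.80 (-1.77 to 0.16), intervals that leave room for differences of either sign.

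The genes that act with the interleukins were read from 3 lists of partner genes. Of 10 JAK, STAT, SOCS and related genes, 9 were above background in every group. In 5-FU, 2 were called higher (against 10.1% of all genes) and none lower (against 10.1%). In Combi 4 were called higher (against 13.6%) and none lower (against 6.58%). SARB had 3 higher (against 8.63%) and 1 lower (against 20%), and TQ had none higher (against 3.42%) and 2 lower (against 21.6%). The median log2 fold changes were 0.36 in 5-FU, 0.52 in Combi, 0.21 in SARB and -0.14 in TQ. After TMM normalization 4 were called higher in 5-FU (against 14.2%), 5 in Combi (16.3%), 5 in SARB (16.4%) and 1 in TQ (10.8%), and none was called lower (against 5.62%, 5.75%, 9.32% and 6.03% of all genes in that order). SOCS1, a brake on JAK signaling, rose from 44.1 ± 18.3 scaled counts in control to 120 ± 11.1 under 5-FU, 114 ± 7.60 under Combi and 97.8 ± 21.5 under SARB (SD, n = 3). Its log2 fold changes of 1.44, 1.37 and 1.17 were also called with cartridge as a block.

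STAT3, the transcription factor downstream of IL-6 type receptors, rose from 391 ± 56.5 to 908 ± 22.9 in 5-FU and 740 ± 109 in SARB (log2 fold changes 1.22 and 0.92). In Combi it lay at 538 ± 46.1, above every control sample, and its log2 fold change of 0.46 stayed under the fold limit, while with cartridge as a block it was 0.71 and was called. SOCS3, a STAT3 target that restrains IL-6 signaling, rose by 1.05 in Combi and 0.63 in SARB on the log2 scale, and STAT4 fell by 1.14 in TQ and rose by 0.82 in Combi. The SOCS3 and STAT4 calls were lost with cartridge as a block. The SOCS3 values of 0.56 in 5-FU and 0.33 in TQ were not called, but both were called after TMM normalization (0.74 and 0.80).

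Of 11 genes that lead from the IL-1 receptor to NF-kB, 5 were called higher in Combi (against 13.6% of all genes), 2 in 5-FU (10.1%), 2 in TQ (3.42%) and 1 in SARB (8.63%). None was called lower, against 6.58% of all genes in Combi, 10.1% in 5-FU, 21.6% in TQ and 20% in SARB. After TMM normalization 6 were called higher in TQ (against 10.8%), 5 in Combi (16.3%), 5 in SARB (16.4%) and 2 in 5-FU (14.2%). With cartridge as a block 3 were called higher in Combi (against 8.36%) and none in 5-FU (8.08%), SARB (6.85%) and TQ (1.78%). TNFAIP3, an inhibitor and target of NF-kB, was called higher in all 4 treatments, with 29.9 ± 11.9 scaled counts in control, 78.9 ± 17.5 in Combi, 62.7 ± 6.42 in SARB, 58.8 ± 20.1 in TQ and 53.8 ± 7.31 in 5-FU (SD, n = 3). Its log2 fold changes in that order were 1.39, 1.08, 0.90 and 0.86, the TQ samples overlapped with the control, and the call held with cartridge as a block in Combi alone. NFKBIZ, a nuclear cofactor of NF-kB, rose by 0.89 in Combi, 0.74 in TQ and 0.61 in 5-FU, and with cartridge as a block the call held in Combi (0.91) and was lost in TQ (0.62) and 5-FU (0.49). In SARB the NFKBIZ value of 0.55 stayed under the fold limit. It was called after TMM normalization (0.89) and after subtraction of the negative probes (0.835), but not with cartridge as a block (0.43). RELA, an NF-kB subunit, NFKBIA, an inhibitor of NF-kB, and IRAK2, a kinase of the IL-1 pathway, were named after their values were seen. With housekeeping scaling they were called against control in Combi alone. They rose by 1.43, 0.78 and 0.78 in Combi, and with cartridge as a block the call of RELA held (0.77) and those of NFKBIA (0.52) and IRAK2 (0.44) were lost. After TMM normalization, with or without subtraction of the negative probes, RELA and IRAK2 were also called higher in SARB. RELA and NFKBIA were lower in SARB than in Combi by -0.98 and -0.93, calls that were both lost with cartridge as a block (-0.32 and -0.34), so treatment and cartridge cannot be told apart here either.

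**Figure D4:**
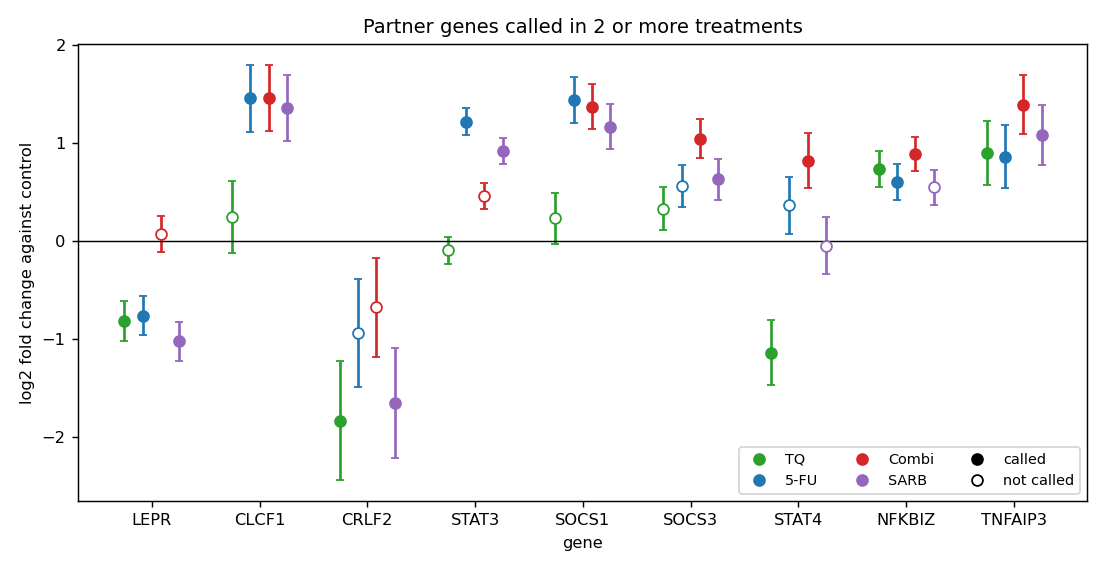
Log2 fold change against control with SE for 9 partner genes that were called in at least 2 treatments, by treatment (color), with filled points for called genes. SOCS1 lay at 1.17 in SARB, 1.37 in Combi and 1.44 in 5-FU, and TNFAIP3 was called higher in all 4 treatments.

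Of 22 further ligands and receptors of the same families, 1 was called higher in Combi (against 13.6% of all genes) and none lower (6.58%), and 2 were higher and 1 lower in 5-FU (10.1% each). SARB had 1 higher (8.63%) and 5 lower (20%), and TQ had none higher (3.42%) and 5 lower (21.6%), so the lower counts of 5 in 22 were near the share of all genes. CLCF1, a gp130 cytokine, rose from 22.3 ± 7.41 scaled counts to 62.6 ± 13.7 in Combi, 61.4 ± 14.5 in 5-FU and 57.6 ± 9.44 in SARB (SD, n = 3; log2 fold changes 1.46, 1.46 and 1.36), and stayed at 24.0 ± 11.8 in TQ. LEPR, the leptin receptor, fell by 0.82 in TQ, 0.76 in 5-FU and 1.02 in SARB on the log2 scale, and lay at 0.07 in Combi. CRLF2, the receptor for TSLP, was above background in no group and was called lower in TQ (-1.84) and SARB (-1.66), with overlapping samples. After TMM normalization CLCF1 was still called in the same groups, and LEPR and CRLF2 were called lower in SARB alone. After subtraction of the negative probes CLCF1 was also called higher in TQ (1.92), and so it was after subtraction with TMM. With cartridge as a block the calls of CLCF1 held and those of LEPR and CRLF2 were lost.

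Leukocyte genes were checked because interleukins and their receptors are abundant in such cells. Of 6 leukocyte markers checked, CD40 and SYK were above background in the control, and their list summed to 285 to 379.8 scaled counts per sample in the control, 395 to 434 in Combi, 316 to 369.7 in 5-FU, 300.2 to 355 in SARB and 235 to 330.5 in TQ. CD14 and CSF1R were above background in no group, and CSF3R was in Combi. The 7 fibroblast markers summed to 58.6 to 165 scaled counts per sample, with 0 to 3 of them above background in a group.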

How the data were processed

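Total RNA of HCT116 cells (50 ng per sample) was counted on the nCounter PanCancer Pathways panel, with 730 endogenous, 40 housekeeping, 8 negative and 6 positive control probes in 15 samples. The authors deposited raw counts per probe. They also deposited a normalized signal, made in nSolver with scaling to the housekeeping genes, and in every sample 100% of these values matched, within 1%, the raw count less the geometric mean of the negative probes, with a minimum of 1, times a sample factor. This subtraction can enlarge, shrink or turn the fold changes of dim genes. Another table holds the authors' own fold changes and p-values against control and was not used. Samples were grouped by their labels, and no pair of samples was identical. The design text calls them biological replicates.

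From the raw counts, factors proportional to the geometric mean of the housekeeping genes were passed to edgeR 4.0.16 (R 4.3.3), and all 5 groups entered 1 quasi-likelihood fit with all 730 genes. Named were the members above background in at least 1 group, those called in any comparison, and at most 4 partner genes per list that were called in 2 or more treatments, with RELA, NFKBIA and IRAK2 added after their values were seen. The members, families, partner lists and marker lists were chosen with earlier results of these data known. Some genes of the fixed lists are not reported here. Alternatives were TMM normalization, DESeq2 1.42.0, subtraction of the negative probe mean, a fit of genes above background only, cartridge or replicate number as a block, limma 3.58.1 on log2 values of the deposited signal, a fit of the 2 groups compared, and omission of each sample in turn. In the subtraction, counts that fell under 1 were set to 1, so fold changes of genes at that floor are not measured sizes. Subtraction together with TMM was added after seeing the data. Counts of a few molecules limit precision, and the intervals cover the spread between samples as modeled by edgeR.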

Additional observations from a re-analysis of the deposited data

How the results depend on the processing

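The calls of IL8 against control in TQ, Combi and SARB and of IL12A in Combi held under all 15 alternatives, and each other call of a member was lost or turned under at least 1. Of the members called lower, 5 were above background in no group. The cause of the changes below was not tested, and the share of all genes called moved as well. It was worked out with TMM and with cartridge as a block only. Of all genes, lower calls went from 21.6% in TQ to 6.03% with TMM and 3.56% with cartridge. In SARB they went from 20% to 9.32% and 7.67%. Higher calls went from 10.1% to 14.2% and 8.08% in 5-FU and from 8.63% to 16.4% and 6.85% in SARB. In Combi they went from 13.6% to 16.3% and 8.36%. Members called lower in TQ, 6 as reported, numbered 1 after TMM normalization, 0 with DESeq2, 0 after subtraction of the negative probe mean with or without TMM, 2 among genes above background, 0 with cartridge as a block and 1 with limma on the deposited signal. Members called lower in SARB, 3 as reported, numbered 1 among genes above background (IL1R1) and 0 under these other alternatives, with the replicate block and with only the 2 groups fitted. Members called higher in 5-FU, 1 as reported, numbered 2 with TMM, DESeq2 or cartridge, and 4 after subtraction, after subtraction with TMM or with limma. In SARB, 2 as reported, they numbered 4 with TMM, DESeq2, subtraction or limma, 6 after subtraction with TMM, and 1 with only the 2 groups fitted. In Combi, 4 as reported, they numbered 2 with cartridge. For SARB against Combi, 1 member (IL2RB) was called higher after subtraction with or without TMM, and lower calls, 2 as reported, numbered 1 with TMM, DESeq2, subtraction with or without TMM, the replicate block or only the 2 groups fitted, and 0 with cartridge or limma. With 1 sample left out, lower calls ranged from 0 to 12 in TQ, 0 to 10 in SARB, 0 to 3 in 5-FU (3 without control replicate 1), 0 to 1 in Combi (1 without Combi replicate 1) and 1 to 4 for SARB against Combi (4 without SARB replicate 2). Higher calls ranged from 3 to 4 in Combi, 2 to 3 in SARB (3 without SARB replicate 3) and 0 to 2 in 5-FU, and stayed at 1 in TQ.

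The direction turned for IL20RA in SARB after subtraction (0.27) and subtraction with TMM (0.51), for IL8 between SARB and Combi with cartridge as a block (0.70), and without SARB replicate 2 for IL11 in SARB (-0.38, the values with 1 sample left out reaching 0.71) and IL2RB between SARB and Combi (-0.50, reaching 1.17). Of 67 pairs of a named member and a comparison that were called in no fit of all samples, 42 changed sign in some setting, among them, after subtraction, IL11 in TQ (0.085), IL1R2 in TQ (0.225) and IL23A in SARB (0.227). Samples with the same replicate number did not deviate together: the correlation of their deviations had a median of -0.05 and exceeded 0.1 in 11 of 30 pairs, so the numbers were not taken as pairing. With the replicate block the members called were 1 higher and 5 lower in TQ, 1 and 0 in 5-FU, 3 and 0 in Combi, 2 and 0 in SARB, and 0 and 1 for SARB against Combi. Shares of all genes were not worked out with this block.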
